A study of Mus musculus with 24 samples.

Results

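The muscle nicotinic acetylcholine receptor and the proteins that build the neuromuscular junction were followed through the differentiation of C2C12 cells. The 10 genes were chosen by name: the receptor subunits Chrna1, Chrnb1, Chrnd, Chrng and Chrne, the receptor tyrosine kinase Musk with its co-receptor Lrp4 and adaptor Dok7, the scaffold Rapsn, and the acetylcholinesterase gene Ache. Every probe set of the array annotated to 1 of these symbols alone was taken, which gave 13 of the 45101 probe sets measured, and 10 of the 18194 gene symbols that such probe sets carry.

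C2C12 is a mouse line of skeletal myoblasts that leave the cell cycle and fuse into myotubes when serum is lowered. Total RNA was measured on 24 Affymetrix arrays, with 3 replicate arrays at each of 8 time points. Day -1 cells were growing myoblasts at 50% confluency in medium with 10% fetal bovine serum, and Day 0 cells were myoblasts at 90% confluency, when differentiation was induced. Day 0.25 (6 hours), Day 1, Day 2, Day 3, Day 4 and Day 5 cells were kept in medium with serum reduced to 2% per the labels, changed every 2 days. The authors' paper differs from the labels here, giving the reduced serum as 3% and the Day 0 cells as confluent. All groups were the same untreated line, grown without nerve. Whether the replicates of a time point were separate cultures is not given in the sources used here, and the spread that the p-values rest on may thus be no more than technical.

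The receptor is an ion channel built of several subunits. In muscle it holds α, β and δ subunits together with γ in fetal and denervated fibres or with ε in adult innervated fibres. At the synapse, agrin released by the motor nerve binds Lrp4, which activates MuSK. The adaptor Dok7 is needed for that activation, rapsyn ties the receptors into clusters beneath the nerve terminal, and acetylcholinesterase in the cleft ends the signal. Myogenic factors such as MyoD and myogenin bind E-boxes, and the transcription of several subunit genes is known to depend on such sites. GABP and related Ets factors bind the N-box, a site known from the promoter of the ε subunit gene.

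RefSeq promoter windows (build GRCm38.p6) were found for 7 of the 10 genes, and not for Chrnd, Rapsn or Lrp4. The 250 bases before the start are shown for 3 subunit genes that were measured here and for Chrne, because the comparisons below separate these subunits. Capitals mark each E-box, searched as CANNTG, and each N-box, searched as CCGGAA on both strands (TTCCGG on the reverse). Chrng lies at chr1:87205561-87205810 on the + strand, Chrna1 at chr2:73580339-73580588 on the - strand, Chrnb1 at chr11:69795938-69796187 on the - strand and Chrne at chr11:70619195-70619444 on the - strand.
Chrng: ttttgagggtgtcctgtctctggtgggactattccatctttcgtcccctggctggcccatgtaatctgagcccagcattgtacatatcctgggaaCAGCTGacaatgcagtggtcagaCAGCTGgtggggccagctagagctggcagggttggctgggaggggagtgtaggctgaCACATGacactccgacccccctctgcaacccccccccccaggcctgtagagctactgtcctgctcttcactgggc
Chrna1: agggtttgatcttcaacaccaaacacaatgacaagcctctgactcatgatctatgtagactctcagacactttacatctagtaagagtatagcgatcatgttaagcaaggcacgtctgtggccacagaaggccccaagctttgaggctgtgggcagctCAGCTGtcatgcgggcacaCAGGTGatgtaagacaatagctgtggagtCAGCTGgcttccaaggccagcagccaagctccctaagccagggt
Chrnb1: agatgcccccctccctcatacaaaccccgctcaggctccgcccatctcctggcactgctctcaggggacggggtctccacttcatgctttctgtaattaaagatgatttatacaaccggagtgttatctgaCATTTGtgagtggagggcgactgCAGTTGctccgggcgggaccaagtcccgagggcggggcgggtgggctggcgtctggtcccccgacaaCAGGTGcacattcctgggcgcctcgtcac
Chrne: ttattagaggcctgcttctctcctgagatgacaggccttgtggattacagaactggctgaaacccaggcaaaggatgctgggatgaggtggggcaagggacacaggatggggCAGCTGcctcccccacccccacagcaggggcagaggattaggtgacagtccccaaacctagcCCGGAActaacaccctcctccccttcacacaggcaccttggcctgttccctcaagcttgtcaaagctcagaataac

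The Chrng, Chrna1 and Chrnb1 windows held 3 E-boxes each, and the Chrne window held 1. An E-box stood in 66.2% of all 32851 promoter windows of this length, and 3 or more in 12.2%. The form with a GC centre, CAGCTG, is counted within the general E-box. It occurred 2 times in the Chrng window, at 155 and 132 bases before the start, and 2 times in the Chrna1 window, at 92 and 44 bases before it. At least 1 CAGCTG was present in 13.0% of all windows and at least 2 in 1.26%. The N-box was present in the Chrne window, 76 bases before the start, and in 3952 of the 32851 windows. The Musk window held 3 E-boxes, 1 of them CAGCTG, the Ache window held 1, and the pair of Dok7 windows held 1 and 0. Chrnd and Chrng are neighbours on chromosome 1, with no other RefSeq gene starting between them. These matches describe the letters of the windows only.

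Of the 13 probe sets, 9 reached a mean intensity of 100 at 1 or more time points and were tested. They belong to 8 genes, Chrng with 2 probe sets and Chrna1, Chrnb1, Chrnd, Musk, Rapsn, Dok7 and Lrp4 with 1 each. The other 4 probe sets lay below 4 on every array, at the level of the lower part of each array, where the median of all probe sets was between 3.64 and 3.88. The lowest and highest values were 1.69 and 1.75 for Chrne (1420560_at), 1.66 and 1.71 for Ache (1422635_at), 2.30 and 2.37 for the Chrng probe set 1427728_at, and 2.69 and 3.53 for the Dok7 probe set 1442869_at. For Chrng and Dok7 another probe set of the same gene read far higher, so a probe set at this level need not show the level of its gene. Chrne and Ache have no other probe set here, their levels are thus not known from this array, and the exchange of the γ for the ε subunit could not be followed. Of the 11 nicotinic subunit genes of neurons and other tissues, 10 had a probe set, and their 22 probe sets lay between 1.61 and 6.38 on all 24 arrays. The plot of all 13 probe sets sets both groups side by side.

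**Figure D1:**
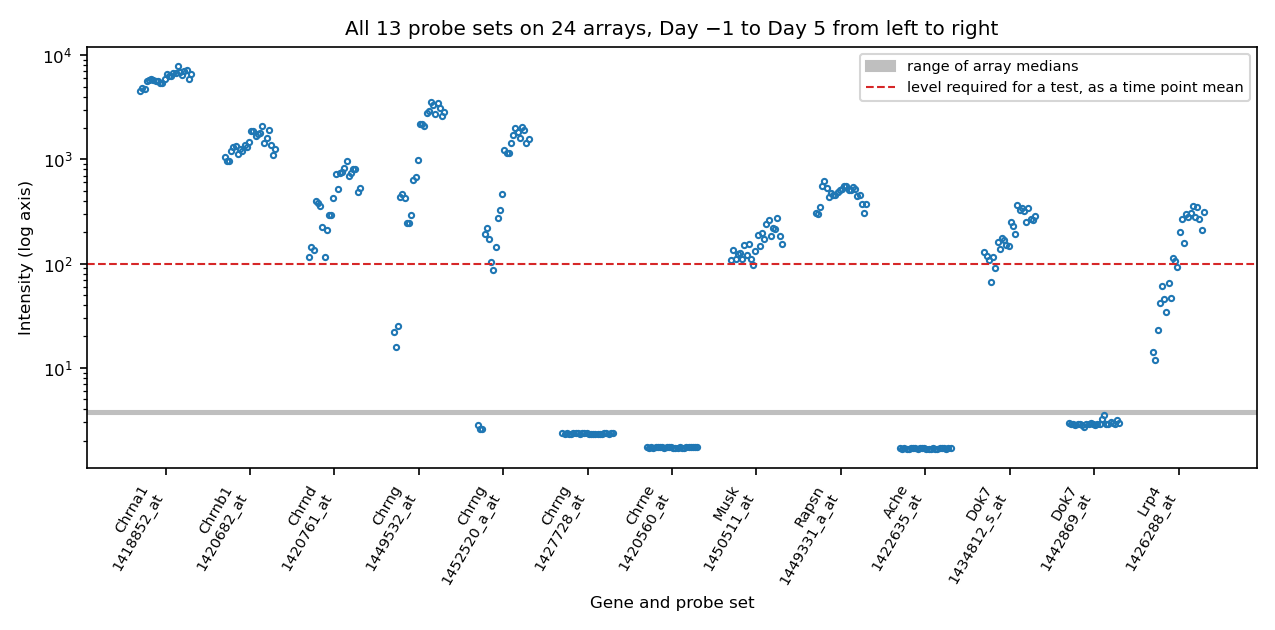
Intensity (log axis) of each of the 13 probe sets on 24 arrays, drawn from Day -1 on the left to Day 5 on the right within each probe set, with the array medians (grey, 3.64 to 3.88) and the level of 100 (dashed). Chrne, Ache, 1 Chrng and 1 Dok7 probe set stay below 4 throughout, while 9 probe sets cross or lie above 100.

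The markers of the line were present. All 7 muscle markers (Myod1, Myf5, Des, Myog, Cdh15, Ttn and Myh3) were above 100 at every time point, and their summed intensity went from between 5582 and 5959 on Day -1 to between 26990 and 30270 on Day 5. Over that span 6 of the 7 rose, with Myh3 (142 to 11250) and Myog (404 to 9369) making up most of the sum on Day 5, and Cdh15 fell from 2093 to 532. Markers of neurons (6 of 6), Schwann cells (3 of 5 had a probe set), endothelium (2 of 2) and macrophages (2 of 2) were below 100 at every time point, with neuronal sums between 14.9 and 16.0, Schwann cell sums between 9.06 and 9.39, endothelial sums between 3.52 and 3.65 and macrophage sums between 6.24 and 12.8. The 3 fibroblast markers summed to between 16.1 and 49.4 on the arrays up to Day 1 and to between 105 and 456 from Day 2 on, with Lum at 171 and Pdgfra at 148 on Day 5 and Dpt at 2.82. That rise ran alongside the changes from Day 1 to Day 2 given below, and its part in them was not tested. In such bulk RNA, fewer cells of a type and less RNA per cell cannot be told apart.

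Within time points, a few arrays were the highest or lowest for most of these probe sets. Day 3 replicate 3 was the highest of its time point for 8 of the 9 probe sets and Day 1 replicate 3 for 7. Day 5 replicate 2 was the lowest for 8 and Day 3 replicate 1 for 7. The 9 probe sets share a time course, and the like shares over all probe sets were not computed. The summed muscle markers were 20130 on Day 1 replicate 3 against 16300 and 16210 on the other Day 1 arrays, and 34170 on Day 3 replicate 3 against 29110 and 32910. On Day 5 replicate 2 that sum was 27200, between 26990 and 30270, and the fibroblast markers summed to 456 against 280 and 229. Results that rest on such an array are given without it below.

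Chrng, the γ subunit of the fetal receptor, had the largest range of the 8 genes. Its leading probe set (1449532_at) read 22.0, 15.8 and 25.2 on the 3 arrays of Day -1, 439, 467 and 422 on Day 0, 247, 244 and 291 on Day 0.25, and 638, 676 and 977 on Day 1. It then read 2171, 2203 and 2099 on Day 2, 2770, 2932 and 3517 on Day 3, 3294, 2734 and 3503 on Day 4, and 3079, 2603 and 2850 on Day 5. No array of one time point overlapped with the next up to Day 3, and those of Days 3, 4 and 5 overlapped one another. The intensity rose 21.4-fold from Day -1 to Day 0 (log2 change 4.42 ± 0.16 SE, adjusted p = 6.52e-14, limma), fell by 0.77 on the log2 scale to Day 0.25 (SE 0.16, adjusted p = 0.000967), rose by 1.53 to Day 1 (SE 0.16, adjusted p = 1.36e-06) and by 1.52 to Day 2 (SE 0.17, adjusted p = 0.000980). Since Day -1 lay near the lower end of the scale, the size of the earliest rise depends on the background correction. With all values below 50 raised to 50 it was 3.15 on the log2 scale, with the same direction and an adjusted p of 3.55e-13.

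The second Chrng probe set, 1452520_a_at, moved the same way. It read 2.85, 2.60 and 2.57 on Day -1, which is below the array medians, 190, 218 and 170 on Day 0, 103, 86.8 and 144 on Day 0.25 and 276, 328 and 462 on Day 1. From Day 2 to Day 5 its means were 1172 ± 53.2, 1714 ± 277, 1817 ± 212 and 1646 ± 237 (SD, n = 3). Its changes over the earliest 4 intervals were 6.17 ± 0.18, -0.82 ± 0.18, 1.68 ± 0.18 and 1.75 ± 0.18 on the log2 scale (± SE), each with an adjusted p of 0.00157 or lower. The earliest change was 1.94 with values below 50 raised to 50. From Day 2 to Day 3 neither Chrng probe set passed, with log2 changes of 0.50 (adjusted p = 0.0713) and 0.54 (adjusted p = 0.0913). The change from Day 2 to Day 5 passed for 1452520_a_at alone, at 0.48 ± 0.18 (adjusted p = 0.0492), against 0.40 ± 0.16 for 1449532_at (adjusted p = 0.0653). Leaving out any 1 of 5 of the 6 arrays of those days ended the call for 1452520_a_at, with adjusted p between 0.0728 and 0.179.

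Chrnd, the δ subunit gene, moved in the same directions as Chrng from each time point to the next up to Day 3, with a smaller range. Its Day 1 mean (338) was below that of Day 0 (380), whereas Chrng by 1449532_at was higher on Day 1 (764 against 443). It read 115, 145 and 134 on Day -1, 400, 383 and 356 on Day 0, 224, 114 and 210 on Day 0.25, and 294, 295 and 424 on Day 1. It read 730, 522 and 738 on Day 2, 764, 835 and 964 on Day 3, 696, 740 and 803 on Day 4, and 812, 482 and 531 on Day 5. Neighbouring time points did not overlap up to Day 3, though 1 array of Day 0.25 fell back to the level of Day -1, and the 3 arrays of Day 5 were widely spread. The level rose 2.90-fold from Day -1 to Day 0 (log2 change 1.54 ± 0.23, adjusted p = 1.95e-05), fell by 1.11 on the log2 scale to Day 0.25 (SE 0.23, adjusted p = 0.000646), and rose by 0.92 to Day 1 (SE 0.23, adjusted p = 0.00502) and by 0.98 to Day 2 (SE 0.20, adjusted p = 0.00816).

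Chrna1, the α subunit gene whose product holds most of the acetylcholine binding site, had the narrowest range of the 8 genes. It read 4522, 4871 and 4718 on Day -1, 5596, 5813 and 5852 on Day 0, 5777, 5595 and 5619 on Day 0.25 and 5427, 5461 and 5897 on Day 1. The later arrays read 6529, 6295 and 6332 on Day 2, 6684, 6787 and 7847 on Day 3, 6871, 6459 and 7061 on Day 4, and 7268, 5965 and 6541 on Day 5. All arrays of Day -1 lay below all later ones, and those from Day 0 to Day 1 overlapped. It rose 1.22-fold from Day -1 to Day 0 (log2 change 0.29 ± 0.08, adjusted p = 0.00672). From Day 1 to Day 2 the log2 change of 0.19 ± 0.10 did not pass (adjusted p = 0.150), although the 3 arrays of Day 2 were all higher than those of Day 1, and it passed with an intensity trend in the prior (adjusted p = 0.0359). The rise from Day -1 to Day 5 was 1.40-fold (log2 change 0.48 ± 0.08, adjusted p = 2.62e-05).

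Chrnb1, the β subunit gene, rose and then fell. It read 1065, 956 and 968 on Day -1, 1211, 1305 and 1334 on Day 0, 1114, 1268 and 1213 on Day 0.25 and 1363, 1313 and 1455 on Day 1. On Day 2 it read 1881, 1851 and 1661, on Day 3 1766, 1806 and 2086, on Day 4 1429, 1618 and 1911, and on Day 5 1363, 1109 and 1269. Day 5 lay below every array of Days 2, 3 and 4 and overlapped with Days 0, 0.25 and 1. The level rose 1.29-fold from Day -1 to Day 0 (log2 change 0.37 ± 0.11, adjusted p = 0.00903) and 1.30-fold from Day 1 to Day 2 (0.38 ± 0.10, adjusted p = 0.0255). It was 1.44-fold lower on Day 5 than on Day 2 (log2 change -0.53 ± 0.11, adjusted p = 0.000663). The rise from Day 1 to Day 2 missed the threshold without replicate 1 or 2 of Day 1 or replicate 1 of Day 2 (adjusted p between 0.0937 and 0.114).

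**Figure D2:**
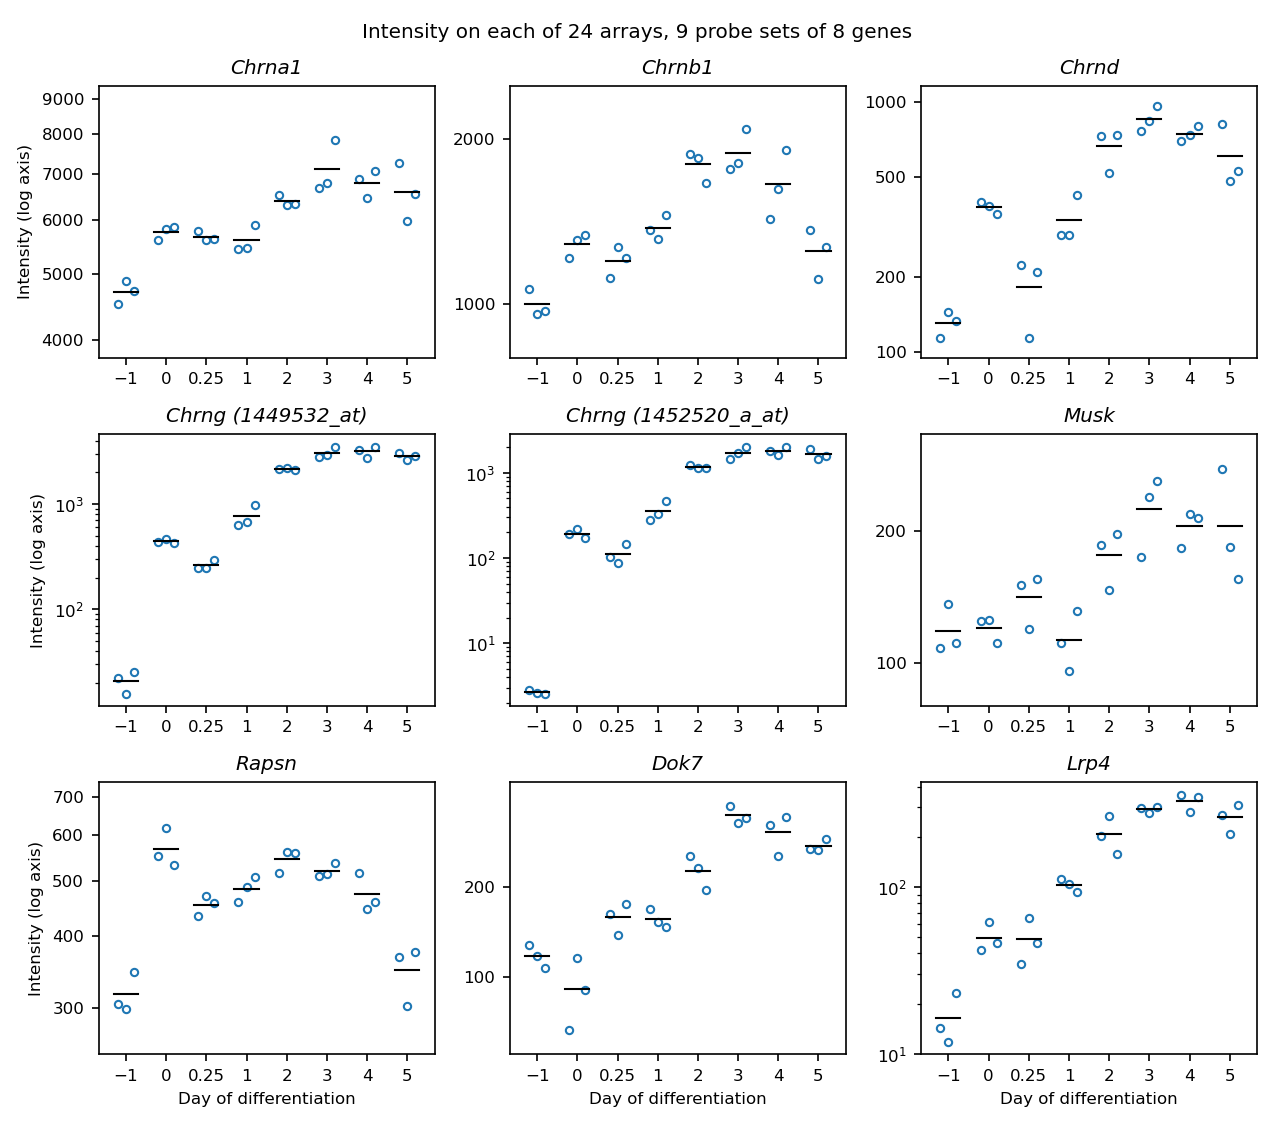
Intensity (log axis) of the 9 tested probe sets against the day of differentiation. Circles are the 3 arrays of a time point and bars their mean; each panel has its own scale, and the axis of days is not to scale in time. Both Chrng probe sets climb from below 26 on Day -1 to between 1140 and 2203 on Day 2, Chrna1 is above 4500 throughout, and Rapsn on Day 5 overlaps with Day -1.

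Lrp4, the agrin receptor, rose from a low level through Day 2. It read 14.3, 11.8 and 23.1 on Day -1, 41.8, 61.3 and 45.8 on Day 0, 34.5, 64.9 and 46.4 on Day 0.25 and 112, 105 and 92.7 on Day 1. It read 201, 268 and 158 on Day 2, 296, 277 and 303 on Day 3, 357, 282 and 347 on Day 4 and 269, 209 and 312 on Day 5. Day 0 and Day 0.25 overlapped, Days 1, 2 and 3 were each apart from the one before, and Days 3 to 5 overlapped. The rise was 3.11-fold from Day -1 to Day 0 (log2 change 1.64 ± 0.24, adjusted p = 2.46e-05), 2.19-fold from Day 0.25 to Day 1 (1.13 ± 0.24, adjusted p = 0.00218) and 1.98-fold from Day 1 to Day 2 (0.99 ± 0.19, adjusted p = 0.00741). The earliest of these lies below 62 on every array and did not pass with values below 50 raised to 50 (log2 change 0.10, adjusted p = 0.676).

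Musk, which encodes the kinase itself, was near 100 until Day 1. It read 108, 136 and 111 on Day -1, 124, 125 and 111 on Day 0, 150, 120 and 155 on Day 0.25 and 111, 95.9 and 131 on Day 1. It read 186, 147 and 196 on Day 2, 174, 239 and 259 on Day 3, 182, 218 and 214 on Day 4, and 276, 183 and 155 on Day 5. The arrays from Day -1 to Day 1 overlapped throughout, all 3 arrays of Day 2 were above those of Day 1, and the arrays of Day 5 covered nearly the whole range of Days 2 to 4. The change from Day 1 to Day 2 was 1.57-fold (log2 change 0.65 ± 0.16, adjusted p = 0.0182) and did not pass without replicate 1 or 2 of Day 1 or replicate 1 or 3 of Day 2 (adjusted p between 0.0611 and 0.0772). Day 5 was 1.69-fold above Day -1 (0.76 ± 0.19, adjusted p = 0.00148).

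Dok7, the adaptor that MuSK needs, was followed by 1434812_s_at alone, since 1442869_at stayed between 2.69 and 3.53 on all arrays. It read 128, 117 and 107 on Day -1, 66.8, 116 and 90.8 on Day 0, 162, 138 and 175 on Day 0.25 and 169, 152 and 146 on Day 1. It read 253, 230 and 194 on Day 2, 369, 325 and 338 on Day 3, 319, 253 and 340 on Day 4 and 266, 263 and 286 on Day 5. Day 0 overlapped with Day -1, whereas all arrays of Day 0.25 lay above both, and Day 3 lay above Day 2. The change from Day -1 to Day 0 was -0.39 ± 0.16 on the log2 scale (adjusted p = 0.0481), and without Day 0 replicate 1, the lowest array, it was -0.19 (adjusted p = 0.318). It did not pass without Day -1 replicate 1 or 2 or Day 0 replicate 3 either (adjusted p between 0.0859 and 0.140). It rose 1.77-fold from Day 0 to Day 0.25 (0.82 ± 0.16, adjusted p = 0.000397), the hours in which Chrnd, Chrng and Rapsn fell. Rises of 1.44-fold from Day 1 to Day 2 (0.53 ± 0.13, adjusted p = 0.0172) and 1.53-fold from Day 2 to Day 3 (0.61 ± 0.16, adjusted p = 0.0269) followed. The former did not pass without Day 1 replicate 2 or 3 or Day 2 replicate 1 (adjusted p between 0.0531 and 0.0724), and the latter without Day 2 replicate 3 or any 1 array of Day 3 (0.0571 to 0.142).

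Rapsn, which encodes the receptor scaffold, had its highest mean on Day 0. It read 305, 300 and 347 on Day -1, 551, 618 and 532 on Day 0, 433, 470 and 458 on Day 0.25 and 459, 487 and 507 on Day 1. It read 516, 560 and 559 on Day 2, 509, 513 and 538 on Day 3, 515, 446 and 459 on Day 4, and 369, 303 and 375 on Day 5. Day 5 overlapped with Day -1 and lay below every other time point. The level rose 1.79-fold from Day -1 to Day 0 (log2 change 0.84 ± 0.09, adjusted p = 7.64e-07) and fell by 0.32 on the log2 scale to Day 0.25 (SE 0.09, adjusted p = 0.0105), a fall that did not pass without Day 0 replicate 2 (adjusted p = 0.0627). It was 1.57-fold lower on Day 5 than on Day 2 (-0.65 ± 0.09, adjusted p = 2.37e-05). The log2 change from Day 1 to Day 2 of 0.17 ± 0.10 did not pass (adjusted p = 0.210), nor did that from Day -1 to Day 5 of 0.13 ± 0.09 (adjusted p = 0.206), which passed without Day 5 replicate 2 (0.23, adjusted p = 0.0349).

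Counted over each interval, the 9 probe sets were read against the share of all tested probe sets that passed in the same direction (adjusted p under 0.05). Over the whole course, all 9 passed the F test across the 8 time points, as did 88.8% of the 13766 probe sets tested, so that count alone says little about these genes. Their ranges differed widely. The spread between the highest and lowest time point mean was 7.26 on the log2 scale for Chrng (1449532_at), wider than in 99.6% of the probe sets tested, 4.38 for Lrp4 (96.2%), 2.70 for Chrnd (91.0%) and 1.95 for Dok7 (84.8%). It was 0.98 for Musk (54.3%), 0.92 for Chrnb1 (50.0%), 0.84 for Rapsn (44.2%) and 0.59 for Chrna1 (23.1%).

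From Day -1 to Day 0, before serum was lowered, 7 of the 9 probe sets rose (all subunits measured, Rapsn and Lrp4) and 1 fell (Dok7), where 23.3% of all tested probe sets rose and 21.7% fell. The median log2 change was 0.84 over the 9 against 0.0051 over all tested. Lrp4 is counted among the 7, although its means were 16.4 on Day -1 and 49.6 on Day 0. Both lie below the level required for testing, which Lrp4 reached only at later time points. Its rise did not pass with values below 50 raised to 50. Both Chrng probe sets, with Day -1 means of 21.0 and 2.67, reached the required level from Day 0 on. In the 6 hours to Day 0.25, 1 rose (Dok7) and 4 fell (Chrnd, both Chrng probe sets and Rapsn), against 22.4% and 20.9%. Requiring a 2-fold change left 4 calls in the earlier of these intervals, that of Lrp4 among them, and 1 in the later. No share of all tested probe sets was computed at 2-fold. From Day 0.25 to Day 1, 4 rose (Chrnd, both Chrng probe sets and Lrp4) and 0 fell, against 11.6% and 15.4%. Chrnd and Chrng thus rose as the cells became confluent, fell in 6 hours of low serum and rose again by Day 1.

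From Day 1 to Day 2, the interval that the study's own analysis compared, 7 of the 9 rose and 0 fell, against 19.0% and 17.3% of the 12649 probe sets tested on those 6 arrays. Chrna1 and Rapsn were those that did not pass. The count was 4 without Day 1 replicate 2 or Day 2 replicate 1, 3 with no level filter and 2 when a 2-fold change was required. Shares of all tested probe sets were not computed for these settings. From Day 2 to Day 3, 1 rose (Dok7) and 0 fell, against 3.23% and 2.95%. From Day 3 to Day 4 limma called none of the 9 in either direction, against 0.472% and 0.661% of all tested, and none had an unadjusted p under 0.05. The 6 arrays of those days alone gave 0 calls as well. From Day 4 to Day 5, 0 rose and 2 fell, against 1.37% and 2.11%, namely Chrnb1 (log2 change -0.40 ± 0.11, adjusted p = 0.0418) and Rapsn (-0.44 ± 0.09, adjusted p = 0.0128). Neither fall passed without Day 5 replicate 2 (adjusted p = 0.234 and 0.0919) or when the 6 arrays of those days were tested alone (0.434 and 0.425), and that for Chrnb1 did not pass without Day 4 replicate 2 (0.105) or replicate 3 (0.228).

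**Figure D3:**
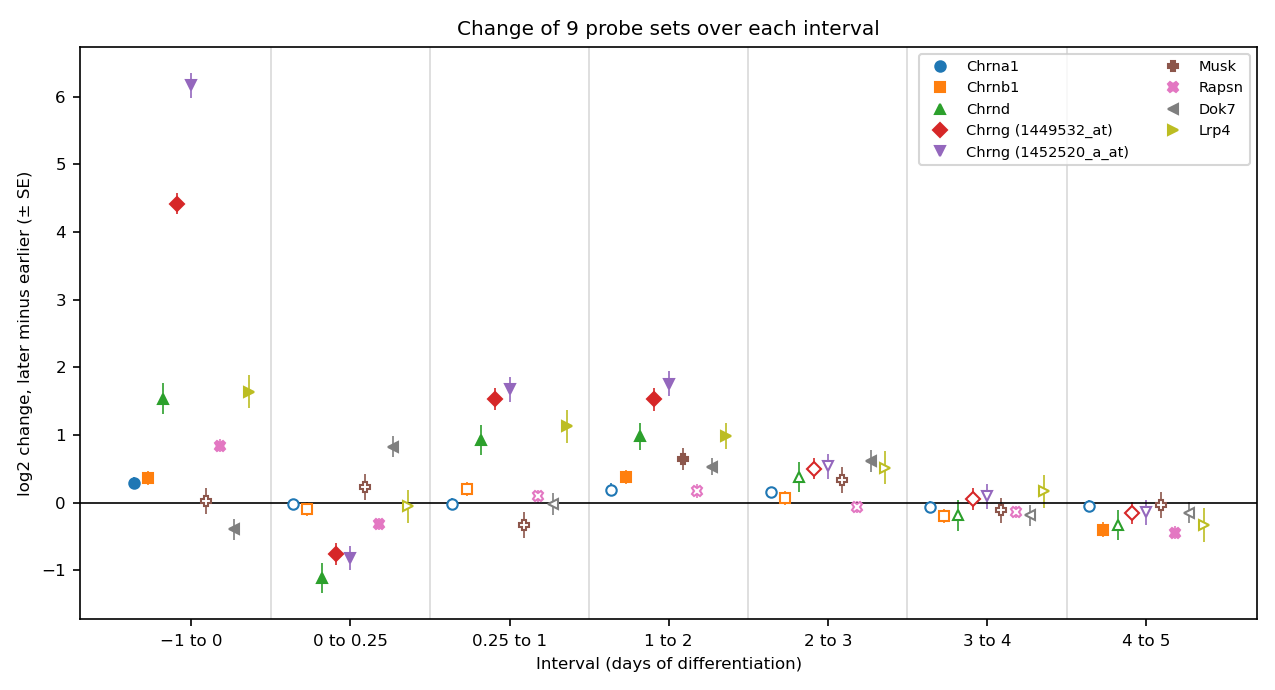
log2 change of the 9 probe sets over each of the 7 intervals (later minus earlier, bars are SE), with filled symbols for an adjusted p under 0.05 and open ones otherwise. Day 1 to Day 2 comes from the 6 arrays of those days and the other intervals from all 24. In each interval up to Day 2 the change of largest size is that of a Chrng probe set or of Chrnd, and all symbols are open from Day 3 to Day 4.

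Over longer spans, 1 of the 9 rose from Day 2 to Day 5 (Chrng 1452520_a_at) and 2 fell (Chrnb1 and Rapsn), where 13.8% of all tested rose and 21.0% fell. From Day -1 to Day 5, 8 rose and 0 fell, against 31.9% and 38.3%, and Rapsn was the exception. Of the 8 that rose, 5 rose by at least 2-fold, and the share of all tested probe sets at 2-fold was not computed. The rise of Chrnb1 over that span, 1.25-fold (0.32 ± 0.11, adjusted p = 0.0116), did not pass without Day 5 replicate 1 (adjusted p = 0.0622). The largest rises were those of Chrng, 138-fold by 1449532_at (log2 change 7.10 ± 0.16, adjusted p = 7.89e-18), of Lrp4, 16.5-fold (4.04 ± 0.24, adjusted p = 1.37e-11), of Chrnd, 4.53-fold (2.18 ± 0.23, adjusted p = 3.91e-08), and of Dok7, 2.32-fold (1.21 ± 0.16, adjusted p = 1.01e-06). With values below 50 raised to 50 the log2 changes of Chrng and Lrp4 were 5.83 and 2.38, both passing.

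Set against its own highest mean, the probe set of each subunit showed a different part of that intensity before differentiation. As a percent of its own highest mean, Chrna1 stood at 66.2% on Day -1, Chrnb1 at 52.8%, Chrnd at 15.4% and Chrng at 0.662% by 1449532_at. On Day 0 these values were 81.0%, 68.0%, 44.5% and 13.9%, and on Day 2 they were 89.9%, 95.3%, 77.7% and 67.9%. Highest means came on Day 3 for Chrna1, Chrnb1, Chrnd, Musk and Dok7, on Day 4 for Chrng and Lrp4 and on Day 0 for Rapsn, although Days 3 and 4 overlapped for every one of the 9 probe sets. For Rapsn the arrays of Day 0 overlapped with those of Days 2 and 3, and its Day 2 mean was 96.1% of that of Day 0. These percentages describe each probe set against itself, since intensities of different probe sets are not on a common scale. Chrna1 lay above at least 99.1% of all probe sets on every array. On Day -1 Chrng stood at 0.147% by 1452520_a_at, against 0.662% by 1449532_at. Whether the scale is compressed at its upper end was not tested, so the percentages need not be parts of the transcript level.

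**Figure D4:**
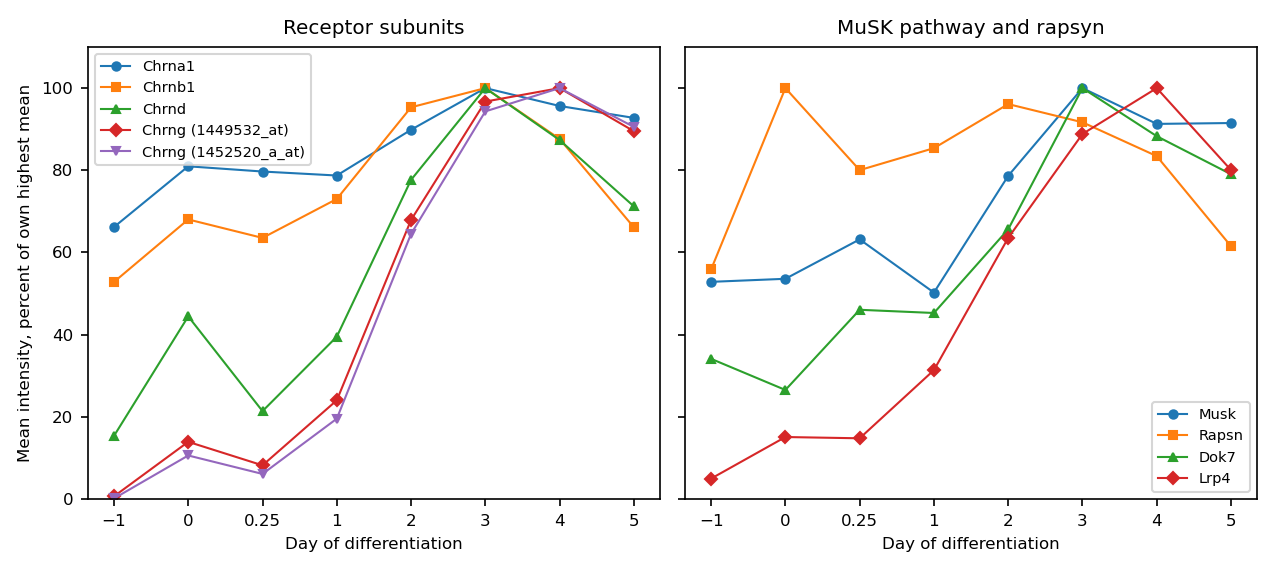
Mean intensity of each probe set as a percent of its own highest time point mean, for receptor subunits (left) and for the MuSK pathway and rapsyn (right), with no error bars. Chrna1 and Chrnb1 begin above 50%, Chrnd and Chrng below 16%, and Rapsn peaks on Day 0.

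Across the 24 arrays, pairs of the 8 genes were described by Pearson's r of log2 intensity, which shares the time course and is given with no test. It was highest for Chrng with Lrp4 (0.96), Chrnd with Chrng (0.92), Chrna1 with Chrng (0.91) and Chrna1 with Chrnd (0.91). It was lowest for Rapsn with Dok7 (0.04) and with Musk (0.07). The genes most like Chrng were Tnnt3 (0.997), Hjv (0.996) and Tnni1 (0.996), of which Tnnt3 and Tnni1 encode troponins of fast and slow muscle. Ankrd2, Ldb3 and Tnnt2 were most like Lrp4 (0.983 to 0.985), and Cdh13, Dtna and Emp2 most like Chrnd (0.973 to 0.977). For Chrna1 the nearest were Cd81, Akt2 and Tom1 (0.950 to 0.957), for Musk Dst, Emc1 and Arih2 (0.959 to 0.969), for Dok7 Sox11, Rbfox2 and Aif1l (0.945 to 0.956), for Rapsn Mxra7, Acads and Pla1a (0.889 to 0.931), and for Chrnb1 Bcam, Sync and Gabbr1 (0.918 to 0.920).

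Other genes of the synapse were taken from 6 lists, with 1 leading probe set a gene. Their counts are read against the shares of all tested probe sets, of which 31.9% rose and 38.3% fell between Day -1 and Day 5, 19.0% and 17.3% between Day 1 and Day 2, and 23.3% and 21.7% between Day -1 and Day 0. In the list of MuSK signalling, 20 of 24 genes were tested, of which 6 rose and 10 fell from Day -1 to Day 5, with a median log2 change of -0.22 against -0.08 over all tested, and the number that rose was at the share of all probe sets. The genes with the lowest adjusted p were Fyn, a Src-family kinase, which went from 530 to 1496 (log2 change 1.49 ± 0.12, adjusted p = 7.61e-10), and Dnaja3, a co-chaperone that binds MuSK, from 332 to 715 (1.09 ± 0.10, adjusted p = 8.03e-09). Src fell from 106 to 22.9 (-2.24 ± 0.24, adjusted p = 7.85e-08), and Dvl2 from 151 to 81.7 (-0.88 ± 0.12, adjusted p = 2.20e-06). From Day 1 to Day 2, 6 of the 19 genes tested rose and 0 fell, led by the adaptor Crkl, from 157 to 278 (0.81 ± 0.16, adjusted p = 0.00738), and Dvl1, from 1020 to 2498 (1.24 ± 0.26, adjusted p = 0.00914). From Day -1 to Day 0, 4 of 20 rose and 5 fell, which is near the shares of all probe sets.

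In the list of the postsynaptic scaffold and membrane, 16 of 20 genes were tested, and 9 rose and 1 fell from Day -1 to Day 5, with a median of 0.64. Ncam1, a neural cell adhesion molecule of developing muscle, went from 168 to 2297 (log2 change 3.76 ± 0.17, adjusted p = 2.52e-13), and Itga7, a laminin receptor chain, from 1767 to 4097 (1.21 ± 0.14, adjusted p = 2.02e-07). Sntb2, a syntrophin, was the one that fell, from 112 to 61.7 (-0.87 ± 0.16, adjusted p = 7.17e-05). From Day 1 to Day 2, 7 of 14 rose and 0 fell, with a median of 0.46 against -0.0045 over all tested, led by Ncam1 (1.66 ± 0.17, adjusted p = 0.000766) and Sntb1 (1.10 ± 0.19, adjusted p = 0.00478). From Day -1 to Day 0, 6 of 16 rose and 2 fell.

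Of the list of the synaptic basal lamina and acetylcholine breakdown, 10 of 15 genes were tested, and 4 rose and 5 fell from Day -1 to Day 5, close to the shares of all probe sets, with a median of -0.35. Nid2, a nidogen, went from 17.1 to 1269 (log2 change 6.18 ± 0.44, adjusted p = 1.79e-10) and Lama2, the laminin chain of muscle, from 56.5 to 179 (1.70 ± 0.25, adjusted p = 5.98e-06), while Nid1 fell from 2152 to 810 (-1.43 ± 0.16, adjusted p = 1.21e-07) and Col4a1, a collagen of basal laminae, from 797 to 408 (-0.97 ± 0.15, adjusted p = 1.20e-05). Nid2 and Lama2 were also those that rose from Day 1 to Day 2 (2 of 10, with 0 falling), at 2.75 ± 0.31 (adjusted p = 0.00101) and 1.40 ± 0.25 (adjusted p = 0.00521). From Day -1 to Day 0, 2 rose and 4 fell. Colq and Prima1, which anchor acetylcholinesterase, and Bche, which encodes a related esterase, did not reach 100.

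Among regulators of synaptic and denervation-induced transcription, 17 of 22 were tested, and 11 rose and 5 fell from Day -1 to Day 5, with a median of 0.64. Myog, the gene of myogenin, went from 404 to 9369 (log2 change 4.56 ± 0.12, adjusted p = 3.83e-17) and Mef2c from 116 to 1865 (4.00 ± 0.21, adjusted p = 2.01e-12), while the Ets factor gene Etv4 fell from 268 to 25.3 (-3.42 ± 0.27, adjusted p = 7.60e-10) and Tcf3, which encodes E proteins, from 584 to 278 (-1.07 ± 0.10, adjusted p = 7.55e-09). From Day 1 to Day 2, 7 of 17 rose and 4 fell. Mef2c (2.13 ± 0.22, adjusted p = 0.000856) and Erbb2, a neuregulin co-receptor (1.10 ± 0.15, adjusted p = 0.00194), had the lowest adjusted p among those that rose, and Myf5 (-1.03 ± 0.10, adjusted p = 0.000738) and Etv4 (-2.13 ± 0.31, adjusted p = 0.00229) among those that fell. From Day -1 to Day 0, 9 of 17 rose and 3 fell. Myog rose most clearly, from 404 to 2621 (2.72 ± 0.12, adjusted p = 5.75e-13), in the interval in which 7 member probe sets rose. Whether these rises are linked was not tested. In the list of receptor assembly, 4 of 6 genes were tested, and 0 rose and 1 fell from Day -1 to Day 5 (Pdia3, a disulfide isomerase, -0.32 ± 0.08, adjusted p = 0.00238), with a median of 0.04. In the list of other nicotinic receptor subunits, 0 of 11 genes reached a level that could be tested.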

How the data were processed

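The deposited table holds 1 intensity per probe set and array on a linear scale. The authors state in their methods that they ran GC-RMA and brought all arrays to 1 trimmed mean. GCRMA and MAS5 are listed in the submitters' processing notes, without versions. Background correction compresses low intensities, so a probe set was tested where a time point mean reached 100, and folds from lower levels are uncertain. Array medians lay between 3.64 and 3.88, trimmed means between 145 and 156, and 25.4% to 27.0% of probe sets reached 100. Their number, 3 a time point, limits the precision.

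Groups and replicate numbers come from the labels. Intensities as log2 values were fitted with limma 3.58.1 in R 4.3.3: Day 1 against Day 2 on those 6 arrays (12649 probe sets, as in the study's methods), all other contrasts and the F test in 1 fit of 24 arrays (13766 probe sets). p-values were adjusted over all probe sets tested (Benjamini-Hochberg, threshold 0.05), and SE is the moderated standard error. The planned test of the Chrne to Chrng ratio is not used, since Chrne lay at the lower end of the scale. The scripts were tested on simulated data. Of 45101 probe sets, the array's annotation gives 34958 a single gene, 932 several and 9211 none; 34897 of the single symbols were found in RefSeq (GRCm38.p6).

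The members and the lists were chosen with earlier results of these data known. Beside the members, each of 6 lists gives at most 2 named genes a direction, those of lowest adjusted p (lists: MuSK signalling, postsynaptic scaffold and membrane, synaptic basal lamina and acetylcholine breakdown, other nicotinic receptor subunits, receptor assembly, regulators of synaptic and denervation-induced transcription). The 3 genes with the highest Pearson r to each member are named too. Colq, Prima1 and Bche, with Lum, Pdgfra and Dpt among the cell type markers, were named after their values were seen. Alternatives were the arrays in the fit, the level required, quantile normalization, a floor of 50, a trend in the prior, a 2-fold minimum, 1 probe set a gene, the replicate block and leaving out each array. Figures were drawn with matplotlib 3.10.9. Promoter windows were taken from RefSeq.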

Additional observations from a re-analysis of the deposited data

How the results depend on the processing

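Of 563 recomputations of the 38 member changes that passed, 71 no longer passed. Most settings that kept all arrays change the test alone and leave the log2 change as it was, so direction could not turn there. It could turn with quantile normalization (38 recomputations), a floor of 50 (38) or 1 array left out (228). It turned in 0 of those. Requiring a 2-fold change asks more of each change and left 4 of the 9 probe sets called in the interval before Day 0, 1 between Day 0 and Day 0.25 and 2 between Day 1 and Day 2. It left 0 between Day 2 and Day 3, 0 after Day 4, 0 between Day 2 and Day 5, 5 between Day -1 and Day 5 and 5 in the F test. With no level filter, more probe sets were tested, and the calls were 3 between Day 1 and Day 2, 0 between Day 2 and Day 3 and 1 after Day 4. The 6 arrays of the days compared gave 0 calls between Day 2 and Day 3 and 0 after Day 4. Raising values below 50 to 50 gave 2 from Day 2 to Day 3; the cause was not tested. Leaving out 1 array gave 4 to 7 calls between Day 1 and Day 2, 0 to 1 between Day 2 and Day 3 and 0 to 2 after Day 4. For intervals not named, leaving out 1 array kept the count within 1.5 times that reported. For none of these settings was the share of all tested probe sets computed, so the counts compare settings only.

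Replicate numbers were not taken to pair the arrays. Over 21 same-numbered pairs of neighbouring time points, r of the deviations lay between -0.51 and 0.55 and was over 0.1 in 12, and the own number gave the best correlation in 9, all 3 pairs of Days 3 and 4 among them. With the replicate number as a block, 2 probe sets passed between Day 2 and Day 3, and 1 after Day 4. The planned log2 ratio of Chrne to Chrng changed by -1.23 from Days 1 and 2 to Days 4 and 5. Its exact permutation p was 0.002165 without the block and 0.25 with it, each the smallest that the test can give. The ratio carries Chrng alone, as Chrne lay at the lower end of the scale, and nothing is drawn from it. Dok7 from Day -1 to Day 0 (adjusted p = 0.0640) and Chrnb1 from Day 4 to Day 5 (0.0514) did not pass with the block, and Chrng 1449532_at passed between Day 2 and Day 3 (0.0470) and over the longer span up to Day 5 (0.0386); no other member call changed.

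The sign of 43 changes that did not pass turned in 25 of 640 recomputations, 3 of them with all arrays kept. The planned ratio with other Chrne and Chrng probe sets was not run, as no Chrne probe set reached 100.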
